A study of Mus musculus with 18 samples.

Results

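Nascent transcription of the enzymes that write, maintain and remove DNA methylation was measured by TT-seq in murine embryonic stem (ES) cells. The 10 genes were chosen by symbol, as Dnmt1, Dnmt3a, Dnmt3b, Dnmt3l, Uhrf1, Tet1, Tet2, Tet3, Tdg and Zfp57. Each matched 1 of 21859 protein-coding genes and 1 of 32253 PROMPTs, the upstream antisense transcripts that are counted within 1 kb of a transcription start site (TSS). TT-seq purifies and sequences the RNA that has taken up 4-thiouridine (4sU) in a brief labelling pulse, so that a level reflects recent transcription more than the stable pool of mRNA.

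The 18 libraries came from E14 cells, an ES cell line, that all carried the plant auxin receptor osTIR1. Untagged cells and the SPT16-AID clones 1 and 2 were each treated for 24 h with 0.1% EtOH or with the auxin 3-IAA, with 3 libraries in each of the 6 conditions. In both clones every copy of the gene for SPT16, a subunit of the histone chaperone FACT, encoded an auxin-inducible degron (AID) and V5 epitopes, so that 3-IAA leads to degradation of the protein. The labels state the 3-IAA dose as 500 nM and the 4sU dose as 500 mM, whereas the methods state 500 µM for both, and the pulse lasted 5 min. Cells were grown feeder-free in serum with LIF and inhibitors of GSK3 and MEK, a medium in which ES cells are known to hold little DNA methylation. Per the methods, the clones are the biological replicates, and repeats of a sample are technical ones.

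The only level used here is baseMean, which is the authors' mean over libraries of read counts divided by size factors. It pools 6 libraries of SPT16-AID cells with 3-IAA with 12 other libraries, so no level below belongs to a single condition, and none has an error or a replicate count. For this reason the treated and control conditions were not compared here, and neighbours in any order of levels cannot be said to differ beyond the spread of the libraries. Fewer cells making an RNA and less RNA per cell also cannot be told apart in bulk libraries.

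DNA methylation in mammals is laid down at CpG dinucleotides by the de novo enzymes DNMT3A and DNMT3B, which DNMT3L assists without being catalytic itself. DNMT1 copies the pattern after replication, and UHRF1 brings it to hemimethylated CpGs. The TET enzymes oxidise 5-methylcytosine, and TDG excises the later oxidation products, which base excision repair then replaces. ZFP57 binds a methylated motif at imprinted regions and protects methylation there when the rest of the genome loses it.

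Pooled over the libraries, the nascent RNA held high levels of ES cell markers, which does not show the state of the cells in any single condition. Markers of early differentiation were not listed. All 7 ES cell markers lay above the median gene by baseMean and per kb. The pluripotency transcription factor genes Sox2 and Tfcp2l1 were at 2910 and 7644 per kb of merged exons (baseMean 5985 and 72140). Of 5 fibroblast, 3 haematopoietic and 2 liver markers, none lay above the median gene. The T cell gene Cd3e had a baseMean of 56.1. The fibroblast collagen gene Col1a1 had a baseMean of 25.3, and the liver gene Alb had 1.92.

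The windows around the annotated starts of the 10 genes differed widely in CpG content, the substrate of the enzymes themselves. RefSeq gave 19 windows of 300 bases on GRCm38.p6, from 250 bases before a start to 50 bases after it, and each of the 10 genes had at least 1. The CpG ratio is the number of CpGs over the number expected from the C and G content of the window. Its median was 0.50 over the 19 windows and 0.38 over all 32841 windows, and 13 of the 19 windows lay above the latter. All windows together cover 27018 symbols, more than the 21859 protein-coding genes measured. The reference is thus not limited to protein-coding genes, as the 10 genes are, and no median over coding genes alone was computed.

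Windows of Tet2, Dnmt3a, Tdg and Uhrf1 had CpG ratios of 1.17, 0.96, 0.99 and 0.96, and are shown to let the density of CpGs, in capitals, be seen beside that of starts with few CpGs. The lines give the bases before the start, 5′ to 3′ on the strand of the gene, and stop at the first annotated exon. The Tet2 line is chr3:133544391-133544640 on the minus strand, with 51 CpGs in 250 bases. The Dnmt3a line is chr12:3806730-3806979 on the plus strand, with 38 CpGs in 250 bases. The Tdg line is chr10:82629588-82629827 on the plus strand, with 18 CpGs in 240 bases, and lies upstream of the gene with the highest PROMPT level of the 10. The Uhrf1 line is chr17:56304063-56304312 on the plus strand, with 30 CpGs in 250 bases.
Tet2: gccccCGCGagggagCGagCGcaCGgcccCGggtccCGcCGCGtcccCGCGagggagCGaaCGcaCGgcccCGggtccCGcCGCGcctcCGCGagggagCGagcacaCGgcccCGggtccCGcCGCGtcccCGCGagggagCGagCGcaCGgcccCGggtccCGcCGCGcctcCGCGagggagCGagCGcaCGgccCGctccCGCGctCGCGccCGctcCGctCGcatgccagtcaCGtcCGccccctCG
Dnmt3a: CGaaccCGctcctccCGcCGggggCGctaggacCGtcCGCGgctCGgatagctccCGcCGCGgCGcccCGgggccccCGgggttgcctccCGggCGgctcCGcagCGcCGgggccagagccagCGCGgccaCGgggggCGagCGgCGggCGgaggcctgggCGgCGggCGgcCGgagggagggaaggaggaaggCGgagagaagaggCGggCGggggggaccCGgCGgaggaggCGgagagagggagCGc
Tdg: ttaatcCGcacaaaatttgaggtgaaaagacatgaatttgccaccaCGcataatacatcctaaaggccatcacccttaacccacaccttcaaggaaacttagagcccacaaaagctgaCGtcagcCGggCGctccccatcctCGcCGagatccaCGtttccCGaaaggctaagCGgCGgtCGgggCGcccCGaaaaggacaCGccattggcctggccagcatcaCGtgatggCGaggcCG
Uhrf1: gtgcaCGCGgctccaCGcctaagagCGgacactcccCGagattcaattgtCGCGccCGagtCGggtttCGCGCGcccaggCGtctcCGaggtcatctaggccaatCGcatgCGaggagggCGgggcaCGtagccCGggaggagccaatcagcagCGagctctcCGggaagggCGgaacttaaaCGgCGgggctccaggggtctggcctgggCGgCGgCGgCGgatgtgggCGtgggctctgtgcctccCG

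The 2 lowest of the 19 ratios were those of the farthest upstream start of Dnmt1, at 0.10, and of a start of Dnmt3l inside the gene, at 0.11. They are shown with the first start of Zfp57, whose ratio of 0.38 lay near the median of all windows. The Dnmt1 line is chr9:20959889-20960138 on the minus strand and holds 2 CpGs in 250 bases. The Dnmt3l line is chr10:78055085-78055334 on the plus strand and holds 3. The Zfp57 line is chr17:37000913-37001162 on the plus strand and holds 6.
Dnmt1: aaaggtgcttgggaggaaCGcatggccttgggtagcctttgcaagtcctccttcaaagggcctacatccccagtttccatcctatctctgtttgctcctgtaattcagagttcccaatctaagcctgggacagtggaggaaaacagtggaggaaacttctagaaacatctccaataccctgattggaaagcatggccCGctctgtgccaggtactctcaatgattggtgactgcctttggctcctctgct
Dnmt3l: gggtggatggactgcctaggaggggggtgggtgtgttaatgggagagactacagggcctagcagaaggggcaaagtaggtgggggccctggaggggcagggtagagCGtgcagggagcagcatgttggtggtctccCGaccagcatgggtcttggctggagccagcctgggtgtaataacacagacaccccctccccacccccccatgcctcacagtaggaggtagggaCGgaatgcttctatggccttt
Zfp57: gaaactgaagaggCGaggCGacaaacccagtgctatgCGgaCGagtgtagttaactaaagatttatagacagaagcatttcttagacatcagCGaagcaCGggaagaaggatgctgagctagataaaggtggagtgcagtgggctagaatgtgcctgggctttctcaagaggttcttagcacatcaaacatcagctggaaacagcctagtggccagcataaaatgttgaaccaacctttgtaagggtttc

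The starts of a single gene could differ in CpG ratio, and which of the annotated starts these cells used was not examined. For Dnmt1 the CpG ratio was 0.10 at the start at position 20959888, 0.50 at 20952979 and 0.91 at 20952623, with 2, 12 and 33 CpGs in the 300 bases. For Uhrf1 it was 0.47 at the start at 56303337 and 0.96 at the start at 56304313. The lower of these also lay above the median of all windows. Dnmt3a had 2 neighbouring starts of high ratio, 0.96 and 1.06, and a start far inside the gene, at 3891744, with a ratio of 0.47, also above that median. By contrast, the 3 starts of Dnmt3l all lay between 0.11 and 0.27, and Dnmt3l was the only one of the 10 genes with no window above the median of all windows. The 3 starts of Zfp57 lay between 0.29 and 0.44. Dnmt3b had 1 window with a ratio of 0.69, Tet1 1 with 0.61, Tet3 1 with 0.58, Tdg 1 with 0.99 and Tet2 1 with 1.17, which exceeded 99.2% of all windows.

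**Figure D1:**
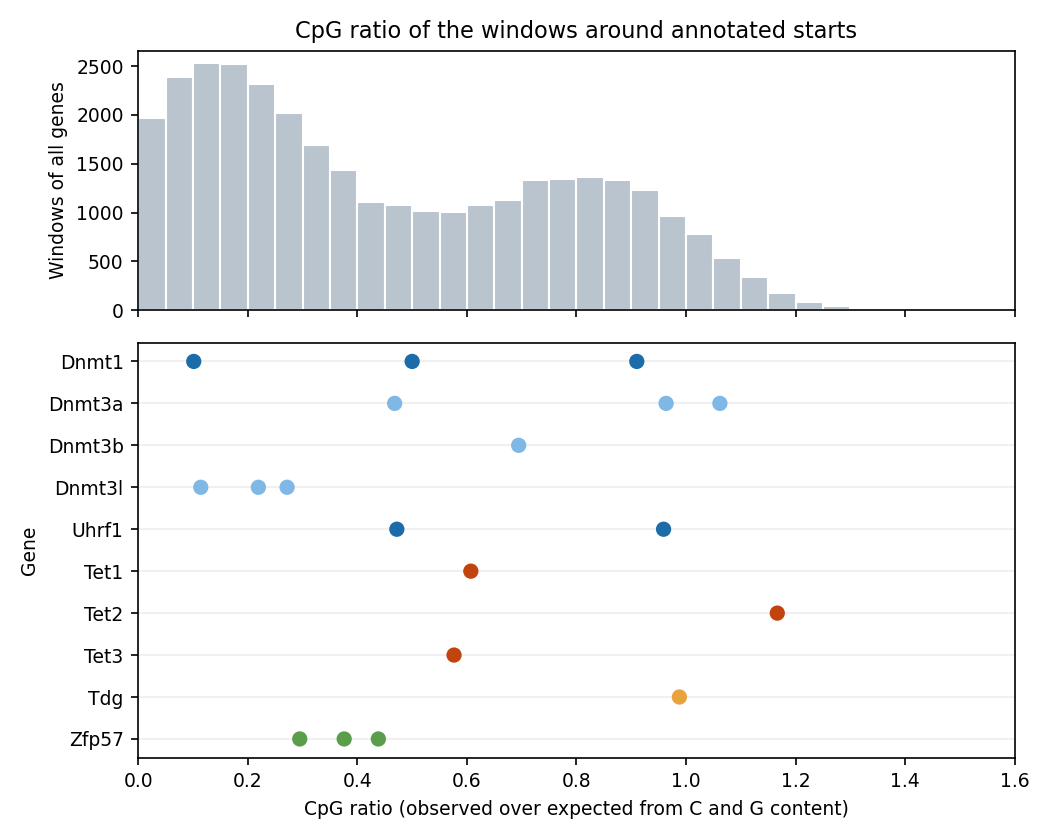
CpG ratio of the windows around annotated starts, as a histogram of all windows (upper panel, number of windows per 0.05 of the ratio) and as 1 point per annotated start of the 10 genes (lower panel, coloured by role as maintenance in dark blue, de novo in light blue, oxidation in red, excision in orange and imprint binding in green). Tet2 lies farthest right at 1.17, and all 3 starts of Dnmt3l lie at 0.27 or below.

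Short motifs were counted on both strands of the same windows. GGGCGG, the GC box bound by SP and KLF factors, was present in 12 of the 19 windows and in 35.7% of all windows. By gene it was present in 8 of the 10, and no share over all genes was computed. The windows of the neighbouring Dnmt3a starts overlap, so that a match can count in both. Tdg and Zfp57 were the genes without it. TATAAA was present in 1 of the 19 windows, at the first start of Zfp57 on the strand opposite to the gene, and in 13.6% of all windows. CCGGAAG, an ETS factor motif, was in none of the 19 windows and in 8.86% of all windows. GGGCGG itself contains a CpG, and such a match is only a match of letters.

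All 10 genes were transcribed above the median gene by baseMean, which was 421 over the 20157 genes with reads. They ranged from 1116 for Tet3 to 48572 for Tet1, and the median of their percentiles was 86.4. The 10 genes together made up 0.225% of the summed baseMean of all genes, and Tet1 and Tet2 alone supplied 62.3% of the 10 genes' sum. Since longer genes collect more reads, baseMean orders genes by their reads, and the levels of the 10 genes were ordered per kb, once per kb of merged exons and once per kb of the whole gene span. In a least-squares fit over the 15428 genes that reached a baseMean of 10, log10 baseMean rose by 0.99 per unit of log10 exon length and by 0.09 per unit of log10 span, which is a description across genes. Reads thus rose with exon length and hardly with span, so that long introns lower a level per kb of span. Per kb, 9 of the 10 genes lay above the median gene on either scale, with Tet3 below it on both.

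**Figure D2:**
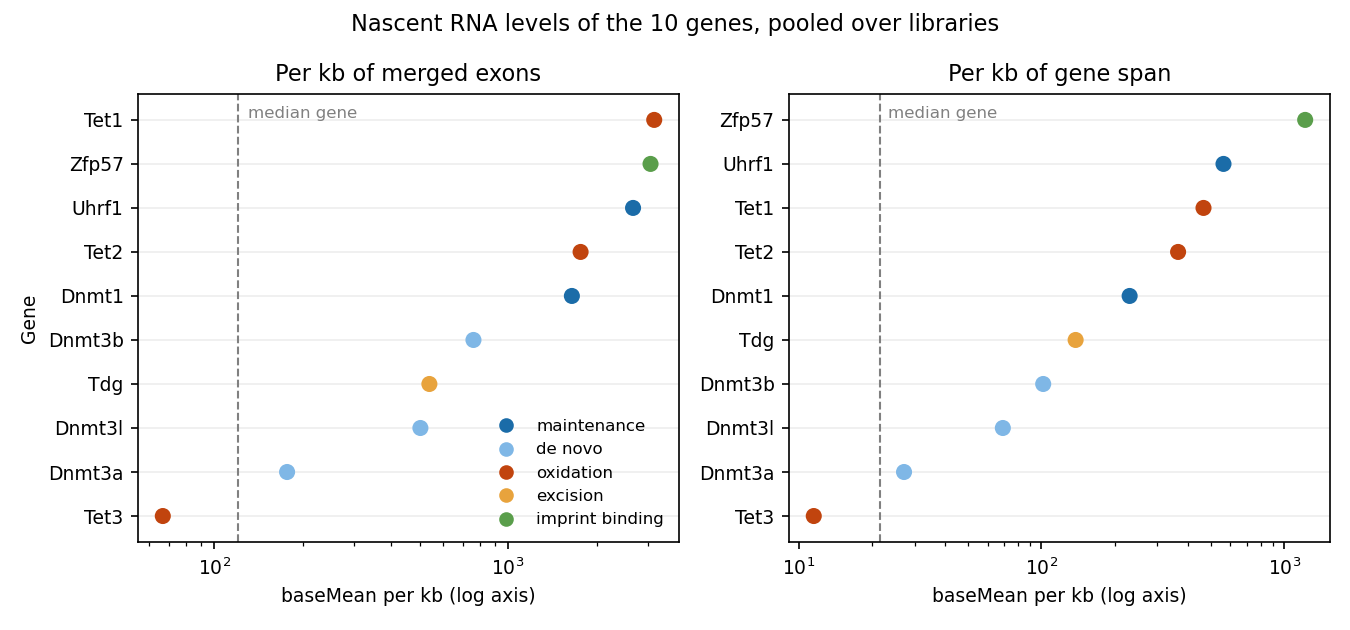
baseMean per kb of merged exons (left) and per kb of gene span (right) for the 10 genes on log axes, 1 point per gene, pooled over the libraries and coloured by role, with the dashed line at the median of genes with reads. Tet3 is the only point left of the line in both panels, and the gene at the top is Tet1 on the left and Zfp57 on the right.

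The oxidising enzymes held both the highest and the lowest level per kb of merged exons, while per kb of gene span Zfp57 and Uhrf1 lay above Tet1. Tet1, on chromosome 10 from 62804570 to 62908996 on the minus strand, had a baseMean of 48572, which placed it at rank 38 of all genes. Tet2, on chromosome 3 from 133463679 to 133545139 on the minus strand, had a baseMean of 29773 and rank 150. Tet3, on chromosome 6 from 83362373 to 83459084 on the minus strand, had a baseMean of 1116 and rank 7863. Tet1 is the TET gene typical of ES cells, and TET3 is known for oxidising the paternal genome in the zygote.

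Per kb of merged exons the level was 3142 for Tet1, 1765 for Tet2 and 66.8 for Tet3. Tet1 was thus 1.78 times Tet2 and 47.0 times Tet3, and Tet2 was 26.4 times Tet3. Per kb of gene span the same ratios were 1.27, 40.3 and 31.7. The low level of Tet3 and the high levels of the other 2 therefore stood on both scales, while the distance between Tet1 and Tet2 depended on the scale. The gene span of Tet3 also holds Mir6374 and 5430434F05Rik on the same strand, and that of Tet1 holds Gm48353 and Gm26479, so that reads from these loci cannot be told apart from pre-mRNA by strand.

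Both genes of the maintenance pair were in the upper 5 of the 10 genes per kb on either scale. Dnmt1, on chromosome 9 from 20907209 to 20959888 on the minus strand, had a baseMean of 12159, above 94.1% of genes with reads. Uhrf1, on chromosome 17 from 56303321 to 56323486 on the plus strand, had 11338, above 93.5%. Per kb of merged exons Uhrf1 was at 2662 and Dnmt1 at 1648, a ratio of 1.62. Per kb of gene span they were at 562 and 231, a ratio of 2.44.

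The de novo group lay lower than the maintenance pair per kb on both scales. Dnmt3b, on chromosome 2 from 153649450 to 153687730 on the plus strand, had a baseMean of 3892. Dnmt3a, on chromosome 12 from 3806007 to 3914443 on the plus strand, had 2945. Dnmt3l, on chromosome 10 from 78041947 to 78063622 on the plus strand, had 1503.

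Although Dnmt3a lay between Dnmt3b and Dnmt3l by baseMean, it is the longest of the 3 genes, and their order changed once length was counted. Per kb of merged exons Dnmt3b was at 762, Dnmt3l at 503 and Dnmt3a at 177. Dnmt3b was 4.31 times Dnmt3a per kb of exons and 3.74 times per kb of span, and 1.52 and 1.47 times Dnmt3l. The highest of the 3 was exceeded by Dnmt1 by 2.16 times per kb of exons and by 2.27 times per kb of span. Dnmt3a overlaps the antisense gene Dnmt3aos over 2952 bases and Dnmt3b overlaps Dnmt3bos over 837 bases, both on the opposite strand, which the counting kept apart.

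Tdg, on chromosome 10 from 82629828 to 82650799 on the plus strand, encodes the glycosylase that excises oxidised methylcytosine. Its baseMean was 2900, at rank 5040 of all genes, and its level was 540 per kb of exons and 138 per kb of span. It changed places with Dnmt3b between the 2 scales. Zfp57, on chromosome 17 from 37001163 to 37010635 on the plus strand, is the shortest of the 10 genes, with a span of 9473 bases. Its baseMean was 11558, and its level was 3053 per kb of exons, next to Tet1, and 1220 per kb of span, the highest of the 10.

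By merged exons the order from high to low was Tet1, Zfp57, Uhrf1, Tet2, Dnmt1, Dnmt3b, Tdg, Dnmt3l, Dnmt3a and Tet3. By gene span it was Zfp57, Uhrf1, Tet1, Tet2, Dnmt1, Tdg, Dnmt3b, Dnmt3l, Dnmt3a and Tet3. The places of 5 genes were the same in both, namely Tet2, Dnmt1, Dnmt3l, Dnmt3a and Tet3. On either scale the first 5 places thus held the maintenance pair, Tet1, Tet2 and Zfp57, and the last 5 held the de novo group, Tdg and Tet3.

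The PROMPTs of the 10 genes did not follow this order. PROMPTs are short-lived RNAs that start upstream of a promoter and run away from the gene. Their table was normalised separately from that of the genes, so PROMPT values were compared only with other PROMPTs. The median PROMPT with reads had a baseMean of 0.815, and 7 of the 10 lay above it, out of 23257 PROMPTs with reads.

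The highest was the PROMPT of Tdg, with a baseMean of 55.1, above 96.8% of PROMPTs with reads and at rank 742. It was also the only 1 of the 10 above a baseMean of 10. No other annotated gene lies within the 1 kb upstream of Tdg, and the nearest protein-coding gene on that side is 1190007I07Rik, 6599 bases away on the opposite strand. The CpG-rich stretch printed above is the end of that upstream region nearest to Tdg. The genes of the other CpG-rich stretches printed, Uhrf1, Tet2 and Dnmt3a, had PROMPTs at percentiles 75.8, 59.2 and 15.3. A link of CpG content to PROMPT level was not tested.

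The PROMPT of Dnmt3l followed at 8.55, above 82.4% of PROMPTs with reads, although Dnmt3l was among the lowest of the 10 genes. The protein-coding gene Aire, with a baseMean of 812 in the gene table, runs on the opposite strand across the start of Dnmt3l and the 1 kb upstream of it. Reads of Aire and a PROMPT of Dnmt3l cannot be told apart at that start. Dnmt3l has further starts inside the gene, and which start a PROMPT value belongs to is not given in the sources used here. The PROMPT of Zfp57 was at 6.68, that of Tet1 at 5.85 and that of Uhrf1 at 5.00, which lay between the 75.8th and the 79.5th percentile.

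The PROMPTs of Tet2 and Dnmt1 were lower, at 1.49 and 1.42, near the 59th and the 58th percentile, although Tet2 held place 4 of the 10 genes per kb on both scales. Against only the PROMPTs named after a measured protein-coding gene, they lay at percentiles 51.6 and 51.0, close to the median. Below the median PROMPT were those of Dnmt3b at 0.630, Dnmt3a at 0.0970 and Tet3 at 0.0660. The annotation holds 3 coding starts for Tet3 and 13 for Dnmt3a, and the start behind a PROMPT value is unknown for these genes too. Low values may therefore belong to starts not used in these cells, which was not tested. B230319C09Rik runs on the opposite strand from 83441755 to 83448322, upstream of the Tet3 start at 83441678 and inside the gene span. Dnmt3bos overlaps the 1 kb upstream of Dnmt3b on the opposite strand, and Gm42567 that of Tet2.

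The lowest 2 values rest on single reads. For a PROMPT that received a single read, baseMean can only take as many values as there were libraries, and 18 recurrent values of this kind stood out in the table, from 0.0266 to 0.129. By these values the PROMPT of Tet3 held 2 reads in 2 libraries and that of Dnmt3a 3 reads in 3 libraries, in each case the only combination that matched within 2e-06. The exact Poisson 95% interval, which covers counting error only, ran from 0.242 to 7.22 reads for Tet3 and from 0.619 to 8.77 reads for Dnmt3a. The 2 are not distinguishable at this depth. In contrast, by the same values the PROMPT of Tdg held at least 428 reads over all libraries, and that of Dnmt3b between 5 and 23.

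**Figure D3:**
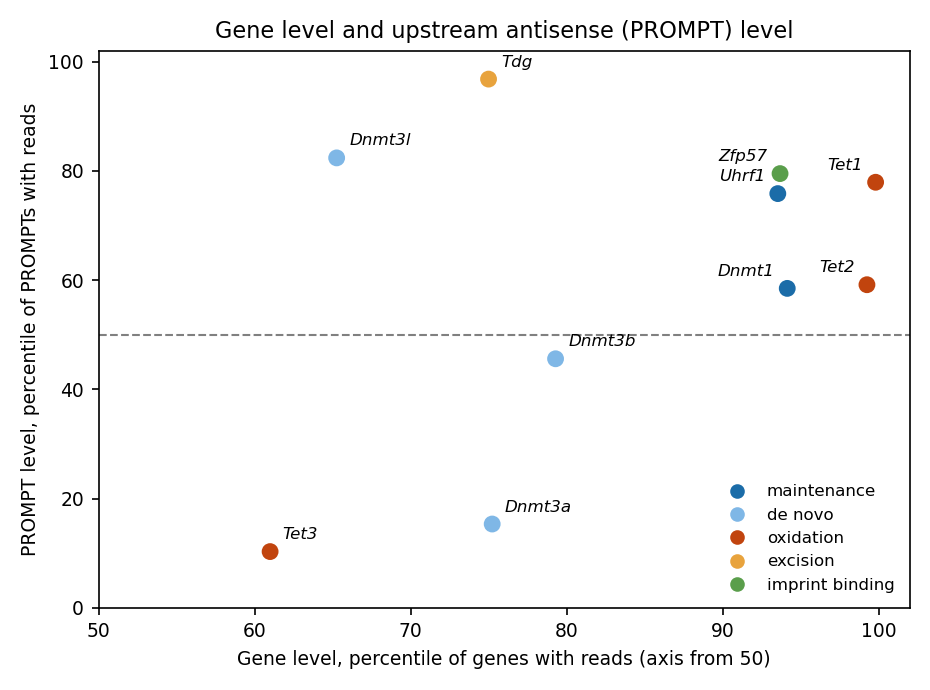
Percentile of each of the 10 genes by baseMean among genes with reads (horizontal axis, from 50) against the percentile of its PROMPT among PROMPTs with reads (vertical axis), 1 point per gene coloured by role, with the dashed line at the median PROMPT. Tdg and Dnmt3l lie at the top left with high PROMPT and moderate gene percentiles, and Tet3 and Dnmt3a lie at the bottom.

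Over the 10 genes, Spearman's rho between gene and PROMPT baseMean was 0.10, and it was 0.41 over the 13716 genes with reads in both tables. With the gene level per kb of span, rho was 0.49 over the 10 genes and 0.57 over all. These are correlations across genes from the same libraries and not across replicates, and 10 genes allow no order of the values of rho.

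Most of the known partners of these enzymes were transcribed above the median gene as well. Of 39 genes in 6 lists of readers, partners and regulators, 35 lay above the median gene by baseMean, 36 per kb of exons and 37 per kb of span. By definition 50% of the genes with reads lie above their median. Among the 10 genes the count was 10 by baseMean and 9 per kb.

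All 4 partners of maintenance methylation lay above the median gene per kb of exons. Usp7, which encodes a deubiquitinase that stabilises UHRF1 and DNMT1, had a level of 7475 per kb of exons (baseMean 58051). Cdca7, which activates the remodeller encoded by Hells, was at 1188 per kb of exons, the lowest of the 4 (baseMean 3804). Of the 9 readers of methylated CpGs, 8 lay above the median per kb of exons. The exception was Zbtb33, which encodes Kaiso, at 95.6 per kb of exons (baseMean 490), while Zbtb38, a zinc finger gene of the same family, was at 1063 (baseMean 12474).

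All 11 genes of base excision repair lay above the median per kb of exons, as Tdg did. The glycosylase gene Neil1 was at 219 per kb of exons (baseMean 409), and Parp1, which encodes a sensor of strand breaks, was at 2437 (baseMean 12900). The 3 genes beside Zfp57 were Trim28, which encodes the corepressor that ZFP57 recruits (baseMean 14382), Setdb1, and Zfp445, a further imprint-binding zinc finger gene (baseMean 5319). Per kb of exons Zfp57 was at 3053, Trim28 at 3459 and Zfp445 at 718.

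Of the 5 partners and cofactor enzymes of the TETs, 4 lay above the median per kb of exons. Ogt, which encodes the O-GlcNAc transferase bound by TET proteins, was at 1818 per kb of exons (baseMean 14627). Cxxc4, which encodes a CXXC protein that binds TET2, was at 7.16 (baseMean 95.9) and was the 1 of the 5 below the median. The last list, of regulators of methylation in naive ES cells and germ cells, had 6 of 7 genes above the median per kb of exons. Gadd45g, a stress-response gene of the GADD45 family, was at 31.9 per kb of exons (baseMean 37.4) and below it. Apobec1, which encodes a cytidine deaminase that edits Apob mRNA, was at 1116 (baseMean 3014).

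**Figure D4:**
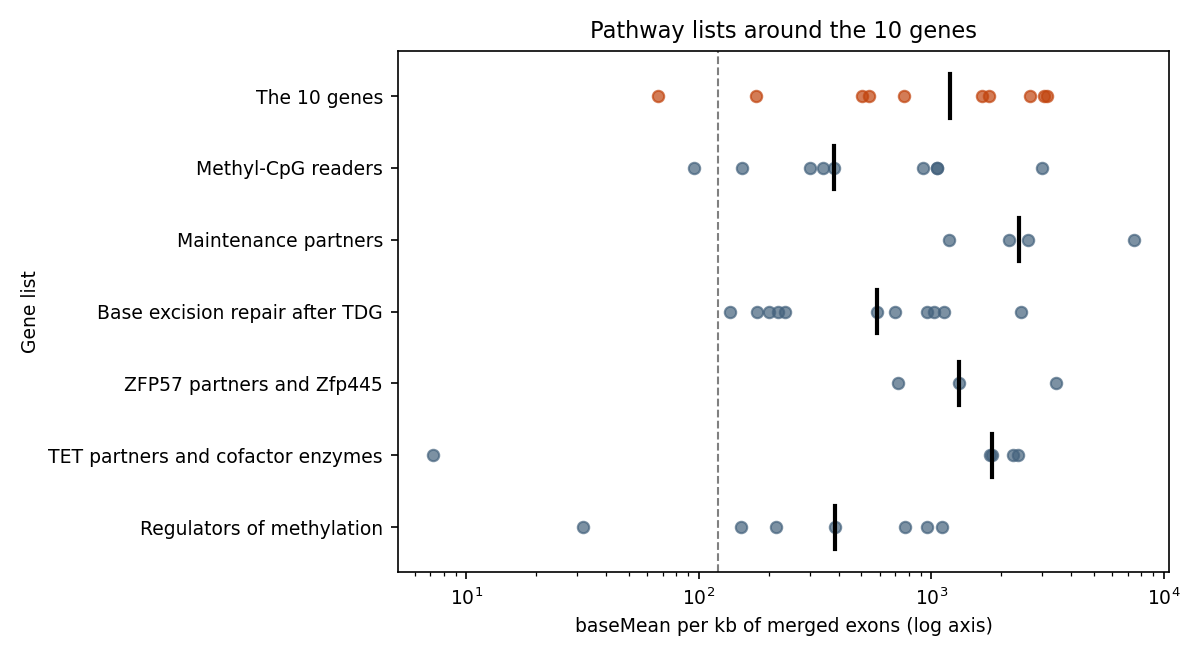
baseMean per kb of merged exons (log axis) of the 10 genes and of the genes in 6 lists, 1 point per gene pooled over the libraries, with a black bar at the median of each list and the dashed line at the median of genes with reads. The median is 1205 for the 10 genes and 2388 for the maintenance partners, and Cxxc4, at 7.16, lies farthest to the left.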

How the data were processed

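TT-seq was measured in 18 libraries. Per the methods and labels, the authors ran Trim Galore, kept unique STAR alignments to mm10, and made stranded counts with featureCounts on Gencode vM25 genes and PROMPTs. The submitters' processing notes also name HTSeq. Versions, and whether intronic reads were counted, are not given in the sources used here. The deposited signal, baseMean, is the authors' average of DESeq2 size-factor-normalised counts across libraries. The tables' other columns hold the authors' comparison of SPT16-depleted with control libraries (shrunken log2 fold change, its standard error, p and adjusted p) and were not used here. Tables of other transcript classes were left out, and depth per library is unknown.

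Genes were matched by ID to Gencode vM21 on GRCm38, the same build as mm10, for 21817 of 21859 genes, to obtain spans and merged exon lengths. A percentile is the share of features with reads that had a lower value. No test was made, since every value is pooled. Single-read values were sought up to a baseMean of 0.2, among values reaching 0.1 of the frequency of the commonest, limits set after the values had been seen. The search was also run on simulated data, with an outcome that is not reported here. Promoter windows are from RefSeq (GRCm38.p6), and the printed bases matched the genome. The named genes were the 10 members and the highest and lowest gene by baseMean of each list. One gene of the lists is not reported here. Setdb1, Hells, Cd3e, Col1a1 and Alb were named after their values were seen. The members and lists were chosen with earlier results of these data known. Alternatives tried were minimums on baseMean, other lengths, other sets of PROMPTs and the bases before the start. Python 3.11.15, numpy 2.4.6, pandas 2.3.3, scipy 1.17.1, pysam 0.24.0 and matplotlib 3.10.9 were used.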

Additional observations from a re-analysis of the deposited data

How the results depend on the processing

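No paired analysis was possible because the values used here are means over all libraries, and for the same reason no library could be left out. The median percentile of the 10 genes, 86.4 by baseMean, was 84.5 against genes that reached a baseMean of 1, 82.3 against those that reached 10, 84.0 per kb of gene span and 84.8 per kb of merged exons. The number of the 10 genes above the median gene was 9 or 10 under each of these. The ratio of the highest to the lowest gene was 106 per kb of gene span, with Zfp57 highest. It was 47.0 per kb of merged exons, with Tet1 highest, and 43.5 per kb of the longest transcript, with Zfp57 highest. Among PROMPTs that reached a baseMean of 1, 4 of the 10 PROMPTs lay above the median in place of 7, which follows from the removal of low PROMPTs. Spearman's rho of gene and PROMPT levels over the 10 genes was 0.10 by baseMean, 0.49 per kb of gene span and 0.41 per kb of merged exons. The median CpG ratio of the 19 windows was 0.50, and 0.47 in the bases before the start. All 20 single gene percentiles and all 20 single PROMPT percentiles recomputed against fewer features were lower than in the report, by at most 11.9 and 47.3 percentage points. For the minimums on baseMean a lower percentile follows from the removal of low features. The depth limits the PROMPTs of Tet3 and Dnmt3a, with 2 and 3 reads.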
